A study of Mus musculus with 12 samples.

Results

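The files list 15125 numbered transcribed loci, and 1702 of these carry no gene symbol in any of the 12 libraries. The set described here holds the 206 symbol-less loci that reached a level of 1 FPKM or more in 3 or more libraries, and 9537 loci with a symbol passed the same filter. FPKM are fragments scaled to transcript length and to the size of the library. In each library a locus took the level of whichever was highest among the sum over its transcript starts, the sum over its ends, and any single transcript event, and a locus not listed in a library was given 0. The members were thus chosen by their measured levels, so how often and how strongly they were detected is a description. At 7 members only libraries of a single group reached 1. Such a locus had to differ from the other groups, so its calls restate the choice, and of the 7, 4 are among the calls for genotype in naive cells, 1 in activated cells, 4 for activation in KI cells, 3 in KIKO cells and 2 for the interaction. The same limit holds for activation at members that reached 1 only in naive (22) or only in activated (9) libraries. For genotype it holds at those that reached 1 only in KI (8) or only in KIKO (11) libraries. For the interaction it also holds at members that reached 1 only in KI naive and KIKO activated, or only in KIKO naive and KI activated libraries. Their calls are within the counts below, and the uneven 22 and 9 bear on the balance of falls and rises. The third-highest level of the weakest members was 1.01, 1.02 and 1.02, and that of the nearest loci left out was 0.998 and 0.982. Of the symbol-less loci left out, 1253 never reached 1 and 243 reached it in 1 or 2 libraries.

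The RNA came from mouse spleen CD4 T cells labelled KI or KIKO, taken as naive cells or after 16 h with Dynabeads that carry antibodies to CD3 and CD28, which mimic the T cell receptor and co-stimulatory signals. The 4 groups, naive and activated cells of KI and of KIKO, have 3 libraries each. The altered gene behind the letters KI and KIKO is not given in the labels, and the KIKO activated samples are titled T cells without the word CD4. Nothing in the labels says whether the 3 libraries of a group came from separate animals, so p-values measure the spread between these libraries. Values below are given in the order of replicates 1, 2 and 3.

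As background, a locus is assembled from overlapping spliced reads before any name is attached, and it stays nameless when no annotated gene is paired with it. Such loci can be long noncoding RNAs, which are spliced and polyadenylated like messenger RNA but code for no protein, transcripts of repeat-rich sequence, or a known gene whose name was not carried over. T cell activation is known to switch a resting lymphocyte to growth, with more ribosome assembly, tRNA modification and one-carbon metabolism, while genes that mark the resting state are lowered. The T cell receptor gene clusters hold many similar variable segments of which each T cell transcribes a rearranged few.

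To learn which members are known genes, the spacing of their splice sites was compared with GENCODE M21 genes of GRCm38 that lie within 500000 bp of the flanking named genes. A match needed at least 3 splice sites at identical spacing on the same strand, and this step was added after the data were seen. Where genes tied, a member kept the first symbol in the alphabet, so ties were not left out of the members. By this rule 65 of 206 members (31.6%) matched a gene, 59 a protein-coding gene and 6 a lincRNA (a long intergenic noncoding RNA). With ties left out, the rule matched 7650 of the 9537 symbol-bearing loci (80.2%), and 6979 of those (91.2%) matched their own symbol. A symbol given to a member below is such a match, with the number of sites that fit, and 4 of the 65 matched symbols also name another locus in the files.

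Exons shared by member and matched gene are printed for the loci whose responses are followed below, from GENCODE M21 (GRCm38), with the 3 bases at each matched splice site in capitals. The Dapl1 and Mettl1 exons have the size of exons whose inclusion was measured in these files, and so does that of Mthfd1l.
Dapl1 exon of 88 bases, chr2:59494465-59494552, plus strand: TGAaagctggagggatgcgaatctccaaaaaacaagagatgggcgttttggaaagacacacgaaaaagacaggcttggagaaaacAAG
Mettl1 exon of 185 bases, chr10:127044467-127044651, plus strand: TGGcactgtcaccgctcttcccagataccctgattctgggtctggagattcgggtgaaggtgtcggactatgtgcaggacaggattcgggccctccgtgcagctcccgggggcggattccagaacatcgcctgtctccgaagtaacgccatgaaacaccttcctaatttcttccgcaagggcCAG
Mthfd1l exon of 75 bases, chr10:4033289-4033363, plus strand: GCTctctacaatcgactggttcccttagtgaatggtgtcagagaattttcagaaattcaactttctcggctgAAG

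The values that follow are FPKM of transcripts that include the exon, an amount and not a share. Inclusion of the exon of 88 bases in XLOC_043312 (Dapl1; GRCm39 chr2:59324809-59324896) was 62.1, 66 and 84.8 in KI naive, 11.3, 8.54 and 15.4 in KIKO naive, 54.8, 50.8 and 55.4 in KI activated and 1.22, 1.23 and 6.57 in KIKO activated cells. The KIKO values lie below the KI values in both states, and the form that skips the exon was listed in a single library, KIKO naive 2, at 0.947. In the other 11 libraries these values equal those of its main transcript start, so they show transcript amount. Inclusion of the exon of 185 bases in XLOC_007253 (Mettl1; GRCm39 chr10:126880336-126880520), read from the exon upstream at 126879092, was 0, 0.929 and 0.662 in KI naive, 0.809, 0 and 1.68 in KIKO naive, 31.6, 36.5 and 38.1 in KI activated and 12.3, 13.2 and 7.67 in KIKO activated cells. It was near or at 0 in naive cells of both genotypes and high in activated cells, with no overlap between KI and KIKO activated libraries. Inclusion of the exon of 75 bases in XLOC_005982 (Mthfd1l; GRCm39 chr10:3983289-3983363) was 6.82, 5.99 and 6.94 in KI naive, 6.03, 6.01 and 5.1 in KIKO naive, 30.0, 41.1 and 43.8 in KI activated and 25.9, 30.1 and 18.1 in KIKO activated cells. Both genotypes were several times higher after activation.

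The 250 bases before the annotated start are printed for Dapl1, which was lower in KIKO cells, and for 3 matched genes that were higher after activation, from the RefSeq promoter table of GRCm38. Capitals mark matches on either strand to 4 motifs, the E-box CACGTG, the GC box GGGCGG, the TATA motif TATAAA and the cyclic AMP response element TGACGTCA.
Dapl1 promoter, chr2:59484403-59484652, plus strand: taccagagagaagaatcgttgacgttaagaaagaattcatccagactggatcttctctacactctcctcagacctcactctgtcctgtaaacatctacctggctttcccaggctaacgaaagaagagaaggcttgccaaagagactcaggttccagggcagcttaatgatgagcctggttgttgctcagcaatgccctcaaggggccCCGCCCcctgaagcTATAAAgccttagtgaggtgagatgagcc
Ebna1bp2 promoter, chr4:118620549-118620798, plus strand: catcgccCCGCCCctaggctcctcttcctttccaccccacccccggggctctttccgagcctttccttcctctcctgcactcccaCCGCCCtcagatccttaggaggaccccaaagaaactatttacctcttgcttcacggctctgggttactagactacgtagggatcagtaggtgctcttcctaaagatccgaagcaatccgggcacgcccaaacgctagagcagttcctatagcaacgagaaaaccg
Mthfd1l promoter, chr10:3972825-3973074, plus strand: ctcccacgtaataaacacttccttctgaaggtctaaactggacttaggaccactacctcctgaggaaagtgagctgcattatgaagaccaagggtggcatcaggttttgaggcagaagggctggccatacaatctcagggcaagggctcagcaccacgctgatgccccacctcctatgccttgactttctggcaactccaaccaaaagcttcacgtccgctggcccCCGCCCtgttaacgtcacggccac
Mettl1 promoter, chr10:127041682-127041931, plus strand: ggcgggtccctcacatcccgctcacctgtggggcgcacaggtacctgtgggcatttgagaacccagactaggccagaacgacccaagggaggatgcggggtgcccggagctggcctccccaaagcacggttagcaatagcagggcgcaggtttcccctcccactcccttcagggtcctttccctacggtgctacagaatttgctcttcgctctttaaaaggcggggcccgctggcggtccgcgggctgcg

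Dapl1 holds a GC box and a TATA motif in this window, Ebna1bp2 holds 2 GC boxes, Mthfd1l holds 1, and Mettl1 holds none of the 4. Of the 65 matched members, 55 have a promoter row. The GC box is in 31 of the 55 (56.4%) and in 32.7% of all 32851 promoter rows. The E-box is in 4 of the 55 (7.27%: Iars, Ipp, Rragb and Zfp59) and in 6.02% of all rows. TATAAA is in 7 of 55 (12.7%; 12.4% of all rows) and TGACGTCA in 2 of 55 (3.64%; 1.55% of all rows). Members were counted by gene, with a match in any promoter row of the gene, while the shares of all rows count single rows. A gene with several rows has more chances of a match, so the shares are not directly comparable. These matches are letters in a window and no measure of binding.

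Most members were weakly transcribed. Their median level over the 12 libraries was 2.22 FPKM, against 10.4 for symbol-bearing loci, and 48 of 206 (23.3%) averaged 10 or more, against 51.3%. The difference lay in the 141 unmatched members, with a median of 1.39, since the 65 matched members had 10.8. Unmatched members were also short, with a median span of 7528 bp, against 41526 bp for matched members and 23682 bp for symbol-bearing loci. Of the 141, 40 had 2 splice sites or fewer and could not match by the rule, so these contrasts are in part set by it. Per library, 147 to 178 members were listed and 113 to 156 reached 1, and together they took 1.31 to 2.68% of the summed level.

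Listing was patchy for many of them, and a value of 0 in these files is not evidence of silence. Malat1, a nuclear noncoding RNA of nearly all cells, is at 0 in 8 of the 12 libraries, and Trac, the constant segment of the T cell receptor alpha chain, in 5. Of the 206 members, 95 were listed in all 12 libraries and 77 (37.4%) reached 1 in all 12, against 81.3% of symbol-bearing loci. By contrast, 32 reached 1 in exactly 3 libraries. There were 22 members at 1 or more in naive libraries only and 9 in activated libraries only, while 8 did so in KI and 11 in KIKO libraries only. Restriction to a single group was rare, with 3 members in KI naive, 2 in KIKO naive, 0 in KI activated and 2 in KIKO activated cells. No member was listed in all 3 libraries of a group and in none of the other 9.

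**Figure D1:**
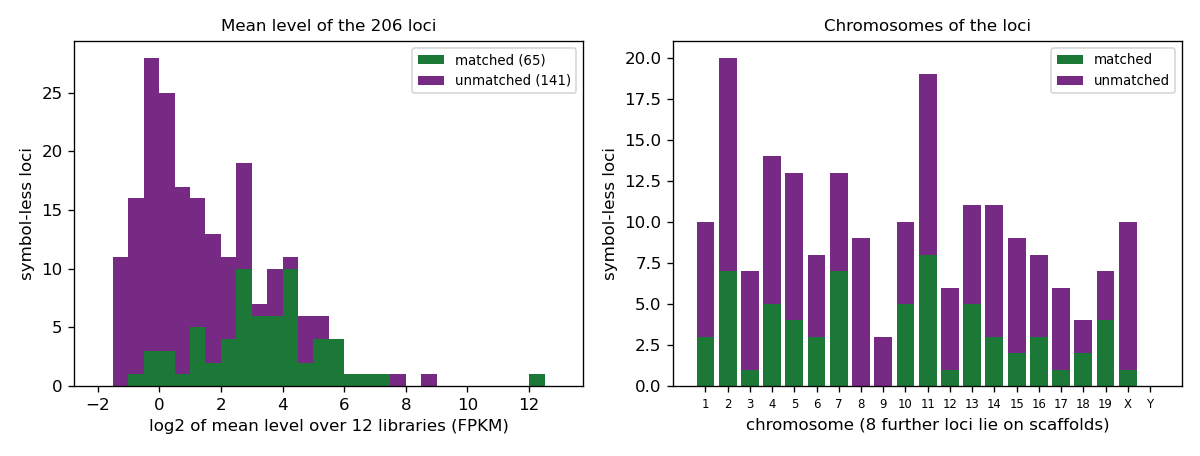
Left, number of symbol-less loci by log2 of their mean level over 12 libraries; right, their number per chromosome, with the 65 matched (green) and 141 unmatched (purple) loci stacked. Matched loci (median 10.8 FPKM) lie to the right of unmatched loci (1.39 FPKM), and chromosomes 2 and 11 have the tallest bars.

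The members stood on every chromosome but Y. Chromosomes 2 and 11 held the most, with 20 and 19. As a share of tested loci, chromosome 13 had 3.13% (11 members) and X 3.34% (10), while chromosome 9 had 0.573% (3). Unplaced scaffolds held 8 members, against 5 of the 9537 symbol-bearing loci. Strand was uneven, since 169 of 206 members (82.0%) lay on the plus strand, against 52.4% of symbol-bearing loci. The excess held for matched members (50 of 65, 76.9%) and unmatched members (119 of 141, 84.4%). No unmatched member had 3 or more splice sites at the spacing of a gene on the other strand, and the most any had was 2. For 40 of the 141 this was fixed, since they had 2 sites or fewer. Of all members, 174 overlapped no symbol-bearing locus, 27 overlapped 1 on the other strand and 6 on the same strand, so reads of those pairs may be shared between them. Members overlapped each other in 3 pairs, each on opposite strands.

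Event types differed by a few percent of events. Of the 2842 events of the members, 21.1% were transcript starts and 10.8% transcript ends, against 17.0% and 8.29% at symbol-bearing loci. Skipped exons made up 42.2% (42.8%), retained introns 10.4% (13%) and alternative exon ends 15.4% (18.9%). Loci with 2 splice sites or fewer were common, at 40 of 206 members, against 544 symbol-bearing loci (5.70%). None of the 40 could match a gene, since a match needed at least 3 sites. All 40 have 1 intron, of 76 to 95431 bp with a median of 3861.5 bp, and 38 lie on the plus strand. At 5 of the 40, on chromosomes 2, 5, 11, 16 and X, the single intron is exactly 79 bp. None of the 454 symbol-bearing loci with 1 intron has an intron of that length.

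Whether the libraries hold other cells was checked on marker genes, since bulk RNA cannot tell fewer cells of a type from less RNA per cell. Cd4 was 186 to 221 in KI naive, 137 to 172 in KIKO naive, 171 to 182 in KI activated and 86.4 to 138 in KIKO activated cells, and of the CD8 T cell genes Cd8a was at most 0.591 while Cd8b1 was 6.51 to 8.12, 12.5 to 16.1, 10.9 to 12.8 and 8.39 to 10.04 in the same order. The summed level of 5 of 7 T cell markers was 998 to 1187, 734 to 889, 778 to 861 and 385 to 604 in the same order (Lck and Cd28 are not listed). The myeloid markers S100a9, S100a8 and Lyz2 stood out in 2 libraries, KIKO naive 2 (S100a9 110.2, S100a8 66.0, Lyz2 26.1) and KIKO activated 2 (S100a9 92.8, S100a8 45.4, Lyz2 22.2), and these were the only libraries with Gzma. S100a9 was at most 3.69 in the other 10 libraries. Of the other myeloid markers, Cd68 was at most 1.54 in any library and 0 in KIKO naive 2. Csf1r was 0 in KIKO naive 2, 1.83 in KIKO activated 2 and 0.949 in KI activated 1. Fcgr3 was 2.07 to 8.32 in the naive libraries, highest in KIKO naive 2, and at most 1.28 in the activated ones. Itgam was not listed. Gzma is 1 of 5 natural killer (NK) cell markers looked at, and the others did not all follow it. Klrk1 was 1.00 in KIKO naive 2, 0.202 in KIKO activated 2 and 0.477 in KIKO activated 1. Ncr1 was 0 in KIKO naive 2, 0.717 in KIKO activated 2 and 0.0887 in KI naive 1. Eomes was 0 in KIKO naive 2, 1.04 in KIKO activated 2 and highest in KI naive 2 (1.37), and Klrb1c was not listed. B cell (at most 2.66 per gene), erythroid and platelet markers were near 0 in all 12. KIKO naive 2 also lists fewer events, 85319 lines against 100188 to 112679 in the others. The part these transcripts have in the results was not tested directly, and counts without both libraries are given below.

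Each comparison was tested with limma across all 9743 loci on log2(FPKM + 1) with Benjamini-Hochberg adjustment, and a locus is called at an adjusted p under 0.05. Differences below are log2 differences on that scale ± SE, which understate the change of low loci, with 3 libraries per group.

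Activation moved more members than genotype did, and mostly downward. In KI cells 29 members rose and 68 fell, together 47.1% of members, while 61.7% of all tested loci were called (32.2% higher, 29.5% lower). In KIKO cells 27 rose and 48 fell, 36.4% of members against 47.3% of all loci (25.1% higher, 22.2% lower). Under quantile normalization all loci turned to 2884 higher and 3119 lower in KI and 2306 and 2396 in KIKO cells, and the members stayed mostly lower (26 and 66, 23 and 55). The median difference over the 206 members was -0.38 in KI and -0.26 in KIKO cells, against -0.01 and 0.00 over all loci. It was -0.64 and -0.33 with a pseudocount of 0.1, -0.28 and -0.15 with summed transcript starts only, and -0.23 and -0.26 over the 77 members at 1 or more in all 12 libraries. The values of naive and activated libraries did not overlap at 105 members in KI cells (69.1% of all loci) and 79 in KIKO cells (55.9% of all loci). Without KIKO naive 2 and KIKO activated 2, the counts were 105 (35 higher, 70 lower) and 53 (20 higher, 33 lower).

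Matched members, which also have higher levels, were called more often than unmatched members, and the part of level in this was not tested. Of the 65 matched members, 18 rose and 27 fell in KI cells (69.2%), and 16 rose and 23 fell in KIKO cells (60.0%). Of the 141 unmatched, 11 rose and 41 fell in KI cells (36.9%), and 11 rose and 25 fell in KIKO cells (25.5%). Among the 77 members at 1 or more in all 12 libraries, 17 rose and 29 fell in KI cells (59.7%), and 13 rose and 27 fell in KIKO cells (51.9%). Both genotypes called 59 members, 57 of them in the same direction. A further 38 were called in KI cells alone and 16 in KIKO cells alone, which does not show that the genotypes differ there.

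**Figure D2:**
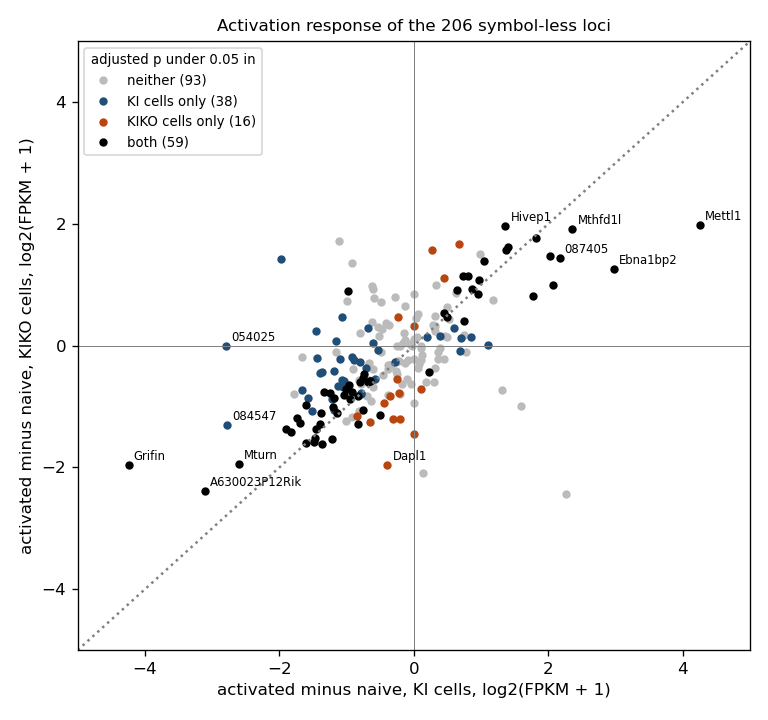
Log2 difference between activated and naive cells for each of the 206 loci, KI cells on the horizontal axis and KIKO cells on the vertical axis. The 2 axes share no library. More points lie below 0 than above on both axes, and 57 of the 59 loci called in both genotypes have the same direction.

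Members that rose with activation included known enzymes and nuclear proteins. Mettl1 is the catalytic subunit of the enzyme that methylates guanine in tRNA. Mettl1 (XLOC_007253, chr10:126877801-126883588, plus strand, 5 of 8 splice sites) had levels of 1.54, 0.93 and 0.797 in KI naive, 1.07, 4.67 and 1.95 in KIKO naive, 33.7, 42 and 39.9 in KI activated and 13.4, 14.7 and 8.4 in KIKO activated cells. Every activated library lay above every naive one, and the rise was 4.25 ± 0.31, adjusted p = 3.5e-07, in KI and 1.98 ± 0.31, adjusted p = 3.0e-04, in KIKO cells. Ebna1bp2 is a nucleolar protein of large ribosomal subunit assembly. Ebna1bp2 (XLOC_054923, chr4:118477996-118489097, plus strand, 3 of 5 splice sites) had levels of 11.1, 10.9 and 24.1 in KI naive, 24.3, 19.6 and 24.9 in KIKO naive, 106, 123 and 131 in KI activated and 62.7, 63.4 and 44.6 in KIKO activated cells. It rose by 2.98 ± 0.25, adjusted p = 1.0e-06, in KI and 1.26 ± 0.25, adjusted p = 0.0013, in KIKO cells. Its match rests on 3 sites, the fewest the rule allowed.

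Mthfd1l is the mitochondrial enzyme that releases formate from the folate cycle. Mthfd1l (XLOC_005982, chr10:3923118-4122999, plus strand, 6 of 8 splice sites) had levels of 6.82, 5.99 and 6.94 in KI naive, 6.03, 6.01 and 5.1 in KIKO naive, 30.0, 41.1 and 43.8 in KI activated and 26.1, 30.1 and 18.3 in KIKO activated cells. Naive and activated libraries did not overlap, and it rose by 2.36 ± 0.18, adjusted p = 4.4e-07, in KI and 1.92 ± 0.18, adjusted p = 7.9e-06, in KIKO cells. Zap70 is the kinase that the engaged T cell receptor recruits. Zap70 (XLOC_000246, chr1:36800502-36830550, plus strand, 3 of 6 splice sites) had levels of 57.2, 47.7 and 51.9 in KI naive, 50.7, 39 and 46.8 in KIKO naive, 133, 149.8 and 129 in KI activated and 146, 179.8 and 96.4 in KIKO activated cells. It rose by 1.38 ± 0.19, adjusted p = 4.2e-05, in KI and 1.57 ± 0.19, adjusted p = 4.7e-05, in KIKO cells, and its match rests on few sites. Hivep1 is a zinc finger transcription factor. Hivep1 (XLOC_020237, chr13:42205497-42352655, plus strand, 10 of 15 splice sites) rose by 1.36 ± 0.18, adjusted p = 3.8e-05, in KI and 1.97 ± 0.18, adjusted p = 8.0e-06, in KIKO cells, from 3.52 to 6.07 in the naive to 12.4 to 24.5 in the activated libraries.

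A further 2 matched loci that rose were picked after their values were seen. Iars, the cytosolic isoleucyl-tRNA synthetase (XLOC_020312, chr13:49835576-49894863, plus strand, 6 of 8 splice sites), rose by 2.03 ± 0.23, adjusted p = 1.0e-05, in KI and 1.47 ± 0.23, adjusted p = 2.9e-04, in KIKO cells. Npas4 is a transcription factor known as an early response to cell stimulation. Npas4 (XLOC_041024, chr19:5034383-5051531, minus strand, 5 of 6 splice sites) was 0 in all 6 naive libraries, 4.34, 3.49 and 2.11 in KI activated and 0.697, 1.5 and 0.841 in KIKO activated cells. It entered the set through activated cells alone, so no test of activation is given for it. A value of 0 means that no event was listed there, and for loci at 0 no fold is given.

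Unmatched loci also rose. XLOC_087405 (chrX:169073156-169089070, minus strand), beyond Erdr1 at the end of X, had levels of 0, 1.1 and 0.355 in KI naive, 0.985, 0 and 0 in KIKO naive, 3.96, 7.52 and 5.13 in KI activated and 2.56, 3.2 and 1.63 in KIKO activated cells. It rose by 2.17 ± 0.35, adjusted p = 1.6e-04, in KI and 1.44 ± 0.35, adjusted p = 0.0049, in KIKO cells, and the second call was lost without both KIKO replicate 2 libraries (adjusted p = 0.060). XLOC_070311 (chr7:27960000-27960831, plus strand), which lies between Dyrk1b and Eid2, had levels of 0, 0 and 7.86 in KI naive, 0 in all 3 in KIKO naive, 5.03, 7.07 and 6.91 in KI activated and 2.18, 2.03 and 3.05 in KIKO activated cells. The rise was 1.81 ± 0.63, adjusted p = 0.025, in KI cells, a call lost without KI naive 1, KI naive 2, KI activated 2 or KI activated 3 (adjusted p = 0.066 to 0.11). In KIKO cells it was 1.76 ± 0.63, adjusted p = 0.037, lost without KIKO naive 1, KIKO naive 2, KIKO naive 3, KIKO activated 1, KIKO activated 2 or KIKO activated 3 (adjusted p = 0.071 to 0.089). The KI rise was 2.86 without KI naive 3, and with summed transcript starts only the rises were 0.86 and 0.53.

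Members that fell were led by loci high in resting cells. A630023P12Rik is an annotated lincRNA gene. A630023P12Rik (XLOC_060422, chr5:110662547-110690395, plus strand, 9 of 33 splice sites) had levels of 77.6, 93.1 and 56 in KI naive, 67.3, 83.5 and 75.4 in KIKO naive, 10.5, 6.99 and 6.14 in KI activated and 15.6, 5.99 and 25.1 in KIKO activated cells. All activated values lay below all naive values, and it fell by 3.11 ± 0.37 (adjusted p = 1.7e-05) in KI and by 2.39 ± 0.37 (adjusted p = 3.0e-04) in KIKO cells. Grifin is a galectin-related protein known from the lens. Grifin (XLOC_062530, chr5:140548874-140582392, minus strand, 7 of 11 splice sites) had levels of 109.6, 105 and 129 in KI naive, 15.1, 79.8 and 106 in KIKO naive, 6.69, 3.09 and 6.07 in KI activated and 11.1, 5.22 and 30.0 in KIKO activated cells. It fell by 4.24 ± 0.65 (adjusted p = 1.2e-04) in KI cells and by 1.97 ± 0.65 (adjusted p = 0.026) in KIKO cells, where the naive and activated values overlapped and the call was lost without KIKO naive 2, KIKO naive 3, KIKO activated 1 or KIKO activated 2 (adjusted p = 0.069 to 0.12). Without both KIKO replicate 2 libraries the KIKO fall was 1.10 (adjusted p = 0.26).

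Mturn, or maturin, is named for a role in neural progenitor differentiation. Mturn (XLOC_065119, chr6:54658639-54725492, plus strand, 4 of 10 splice sites) had levels of 21, 22.5 and 23.2 in KI naive, 25, 24.4 and 26.4 in KIKO naive, 3.16, 2.46 and 2.84 in KI activated and 6.6, 2.84 and 10.0 in KIKO activated cells. It fell by 2.61 ± 0.27 (adjusted p = 5.9e-06) in KI and by 1.94 ± 0.27 (adjusted p = 1.6e-04) in KIKO cells. Akna is an AT-hook protein of centrosomes and microtubule organisation. Akna (XLOC_056020, chr4:63282492-63328976, minus strand, 6 of 17 splice sites) had levels of 111, 99.3 and 105 in KI naive, 91.1, 76 and 94.6 in KIKO naive, 54.3, 45 and 42.8 in KI activated and 42, 29.3 and 50.6 in KIKO activated cells. The fall was nearly the same in both genotypes, -1.14 ± 0.17, adjusted p = 9.0e-05, in KI and -1.11 ± 0.17, adjusted p = 2.5e-04, in KIKO cells. Ly6e, a lipid-anchored surface protein of lymphocytes, was among the most abundant members. Ly6e (XLOC_028148, chr15:74826900-74848846, plus strand, 11 of 13 splice sites) had levels of 169, 179 and 233 in KI naive, 141, 174 and 156 in KIKO naive, 104, 108 and 131 in KI activated and 79.9, 43.9 and 117 in KIKO activated cells. It fell by 0.75 ± 0.27 (adjusted p = 0.028) in KI cells, a call lost without KI naive 3, KI activated 1 or KI activated 2 (adjusted p = 0.073 to 0.10), and by 1.06 ± 0.27 (adjusted p = 0.0062) in KIKO cells (by 0.69 without KIKO activated 2).

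Tpt1, the translationally controlled tumour protein, was the most abundant member by far. Tpt1 (XLOC_024827, chr14:76082533-76102752, plus strand, 6 of 7 splice sites) had levels of 5717, 5377 and 6073 in KI naive, 4532, 3561 and 4586 in KIKO naive, 3472, 2852 and 2766 in KI activated and 3764, 3345 and 3997 in KIKO activated cells. In KI cells it fell by 0.92 ± 0.14 (adjusted p = 1.0e-04), with no overlap (by 0.60 under quantile normalization, adjusted p = 0.013), and in KIKO cells the difference was -0.19 ± 0.14, adjusted p = 0.29, and the values overlapped. Fcgrt, the neonatal Fc receptor heavy chain, was picked after its values were seen. Fcgrt (XLOC_072930, chr7:44742056-44769753, minus strand, 10 of 12 splice sites) was 2.57, 1.88 and 1.77 in KI naive and 0.787, 1.46 and 0.713 in KIKO naive cells and 0 in all 6 activated libraries, where 0 says only that no event was listed. It entered the set through naive cells alone, so no test of activation is given for it.

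Among unmatched members, XLOC_031326 (chr16:22915551-22919505, plus strand) had levels of 1.96, 2.04 and 2.07 in KI naive, 2.16, 3.54 and 3.14 in KIKO naive, 0, 0.628 and 0 in KI activated and 0, 0 and 1.1 in KIKO activated cells. It fell by 1.36 ± 0.31 (adjusted p = 0.0022) in KI and by 1.61 ± 0.31 (adjusted p = 0.0012) in KIKO cells. Over 3258 bp it overlaps another member, XLOC_032137, on the other strand. The scaffold locus XLOC_084547 (GL456210.1:58258-71174, plus strand) had levels of 15.9, 7.84 and 14.3 in KI naive, 8.27, 11.1 and 8.41 in KIKO naive, 0, 0.132 and 5.3 in KI activated and 5.25, 0.41 and 7.03 in KIKO activated cells. The fall was 2.77 ± 0.70 (adjusted p = 0.0043) in KI cells, a call lost with summed transcript starts only (0.99, adjusted p = 0.44), and in KIKO cells the difference was -1.30 ± 0.70, adjusted p = 0.15.

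**Figure D3:**
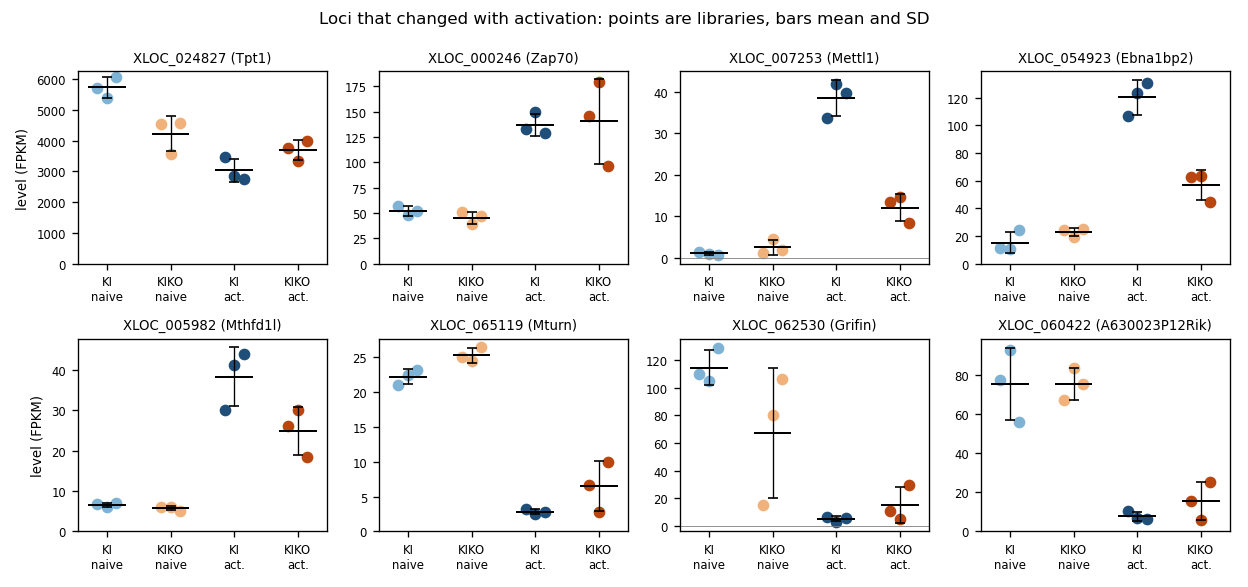
FPKM by library for members that moved with activation, in the 4 groups of 3 libraries, with points for libraries and bars for the group mean and SD. Mettl1 was 0.797 to 4.67 in naive and 8.40 to 42.0 in activated libraries, and A630023P12Rik was 56.0 to 93.1 in naive and 5.99 to 25.1 in activated libraries.

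In naive cells few members separated the genotypes. KIKO was higher at 6 and lower at 13 members, 9.22% of them, against 10.4% of all loci (6.46% higher, 3.9% lower). The direction over all loci turned with the scaling, from 629 higher and 380 lower to 429 and 541 under median-ratio scaling and 487 and 498 under quantile normalization, while that of the members did not (6 and 15, and 6 and 13). The count dropped to 10 without KI naive 2, with 5 higher and 5 lower, and to 13 without KI naive 1, with 6 higher and 7 lower. The lean to lower values in the members thus depended on single libraries. Of the 19 calls 9 held without any 1 library. Matched members were higher at 3 and lower at 4 loci, and unmatched members higher at 3 and lower at 9. The median difference over the members was -0.0042, against 0.05 over all loci. KI and KIKO values did not overlap at 56 members (33.1% of all loci). Without both KIKO replicate 2 libraries 18 were called, 8 higher and 10 lower.

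Isg20 is an interferon-stimulated exonuclease that degrades single-stranded RNA. Isg20 (XLOC_070984, chr7:78563379-78577742, plus strand, 4 of 7 splice sites) had levels of 3.2, 3.21 and 3.93 in KI naive, 17.9, 17.9 and 18.5 in KIKO naive, 3.31, 2.52 and 1.74 in KI activated and 11.3, 7.48 and 10.8 in KIKO activated cells. KIKO libraries lay above all KI libraries in both states, by 2.10 ± 0.18, adjusted p = 2.2e-05, in naive and 1.63 ± 0.18, adjusted p = 2.6e-05, in activated cells. Its transcript start at chr7:78563379 carried most of the level in naive and KIKO libraries, at 3.12, 3.16 and 3.1 in KI naive, 17.5, 17.8 and 18.4 in KIKO naive, 1.45, 0 and 1.62 in KI activated and 10.4, 6.42 and 10.6 in KIKO activated cells. Activation lowered it in KIKO cells by 0.83 ± 0.18 (adjusted p = 0.0022), and in KI cells the difference was -0.36 ± 0.18, adjusted p = 0.098.

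Dapl1 is a small protein related to the death-associated protein Dap. Dapl1 (XLOC_043312, chr2:59314976-59349920, plus strand, 6 of 10 splice sites) had levels of 62.8, 66.6 and 84.8 in KI naive, 11.9, 9.49 and 15.4 in KIKO naive, 54.8, 50.8 and 55.4 in KI activated and 1.22, 1.23 and 6.57 in KIKO activated cells. Every KIKO library was lower than every KI library of the same state, with differences of -2.46 ± 0.37, adjusted p = 0.0021, in naive and -4.03 ± 0.37, adjusted p = 8.4e-06, in activated cells. Activation lowered it in KIKO cells by 1.96 ± 0.37 (adjusted p = 0.0011), and in KI cells the difference was -0.39 ± 0.37, adjusted p = 0.38. The test of the difference between these responses gave -1.57 ± 0.53, adjusted p = 0.054, short of the threshold.

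Dcaf17 is a factor that associates with a cullin ubiquitin ligase. Dcaf17 (XLOC_043396, chr2:70886079-70946186, plus strand, 15 of 18 splice sites) had levels of 4.35, 4.84 and 3.65 in KI naive, 7.42, 9.04 and 9.9 in KIKO naive, 3.04, 2.93 and 2.18 in KI activated and 3.75, 3.22 and 3.24 in KIKO activated cells. Its naive KIKO libraries lay above all others, 0.89 ± 0.15, adjusted p = 0.0034. It fell with activation by 0.51 ± 0.15 (adjusted p = 0.0094) in KI and by 1.15 ± 0.15 (adjusted p = 8.0e-05) in KIKO cells. Unmatched XLOC_011583 (chr11:103857487-103909623, plus strand), between Nsf and Kansl1, had levels of 6.09, 6.15 and 5.22 in KI naive, 9.35, 11.4 and 10.2 in KIKO naive, 3.46, 3.24 and 3.09 in KI activated and 6.05, 6.56 and 6.8 in KIKO activated cells. KIKO was higher in both states with no overlap, by 0.73 ± 0.11, adjusted p = 0.0021, in naive and 0.81 ± 0.11, adjusted p = 1.4e-04, in activated cells.

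Ppp1cc, a catalytic subunit of protein phosphatase 1, differed by little but evenly. Ppp1cc (XLOC_060611, chr5:122296283-122316176, plus strand, 9 of 10 splice sites) had levels of 67, 66.1 and 64.1 in KI naive, 52.5, 49.8 and 53.2 in KIKO naive, 70.2, 77.2 and 78.1 in KI activated and 59.4, 56.1 and 56.8 in KIKO activated cells. KIKO was lower by 0.34 ± 0.08 (adjusted p = 0.016) in naive cells, a call lost without KI naive 1 or KI naive 2 (adjusted p = 0.055 to 0.062), and by 0.38 ± 0.08 (adjusted p = 0.0016) in activated cells. The activated call held without any 1 library but not quantile normalization (-0.20, adjusted p = 0.054). Its rise in KI cells, 0.19 ± 0.08, adjusted p = 0.044, was lost without any 1 library other than KIKO naive 2, KI activated 1, KIKO activated 2 or KIKO activated 3 (adjusted p = 0.057 to 0.13) and turned to -0.0906 under quantile normalization. Cd84, a receptor of the SLAM family, was picked after its values were seen. Cd84 (XLOC_001502, chr1:171594689-171733419, plus strand, 10 of 35 splice sites) had levels of 50.8, 44.6 and 41.5 in KI naive, 21.5, 27.7 and 19.7 in KIKO naive, 29.7, 25.9 and 28.4 in KI activated and 26.9, 33.3 and 24.7 in KIKO activated cells. KIKO was lower in naive cells by 0.97 ± 0.14 (adjusted p = 0.0017), while in activated cells the difference was 0.01 ± 0.14, adjusted p = 0.97.

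A set of 3 unmatched loci was listed in naive cells of a single genotype. XLOC_054025 (chr4:8393005-8398089, plus strand) was 13.3, 11 and 10.9 in KI naive cells, 5.14 in KI activated 3 and 0 in the other 8 libraries. It entered the set through KI libraries alone, so no test of genotype is given for it. XLOC_076478 (chr8:34203998-34208717, plus strand) overlaps Gtf2e2 on the same strand, so its reads may be those of that gene. It had levels of 6.5, 6.13 and 6.79 in KI naive, 0 in all 3 in KIKO naive, 0, 5.8 and 0 in KI activated and 0, 3.67 and 3.17 in KIKO activated cells, and its naive call (adjusted p = 0.022) was lost without KI naive 1, KI naive 2, KI naive 3, KIKO naive 1, KIKO naive 2 or KIKO naive 3 (adjusted p = 0.051 to 0.066). XLOC_024146 (chr14:36865162-36865688, plus strand) was 2.99, 2.13 and 1.47 in KIKO naive cells, 0.524 in KIKO activated 1 and 0 elsewhere. It entered the set through KIKO naive cells alone, so no test is given for it. Fitted differences for loci at 0 depend on the pseudocount, so no fold is given.

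In activated cells more members were called. KIKO was higher at 23 and lower at 19 members, 20.4% of them, against 40% of all loci (20.7% higher, 19.3% lower). Under median-ratio scaling the directions turned, for the members to 20 higher and 22 lower and for all loci from 2021 higher and 1877 lower to 1794 and 2160. Quantile normalization gave 19 and 20 members and 1823 and 1887 of all loci. Of these 42 calls 21 held without any 1 library, and the count ran from 30 without KI activated 2 to 47 without KIKO naive 2. Matched members were higher at 10 and lower at 12, and unmatched members higher at 13 and lower at 7. The median difference was 0.14, against 0.04 over all loci, but it was 0.036 under quantile normalization, 0.27 with a pseudocount of 0.1, 0.065 without KIKO activated 3 and 0.0071 over the 77 members at 1 or more in all 12 libraries. Values did not overlap at 62 members (53.9% of all loci). Without both KIKO replicate 2 libraries 51 were called, 30 higher and 21 lower.

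Loci lower in activated KIKO cells included 3 that rose with activation. Mettl1 (XLOC_007253) differed by -1.62 ± 0.31, adjusted p = 0.0014, Ebna1bp2 (XLOC_054923) by -1.08 ± 0.25, adjusted p = 0.0045, and Mthfd1l (XLOC_005982) by -0.62 ± 0.18, adjusted p = 0.015. The Mthfd1l call was lost without KI activated 2, KI activated 3 or KIKO activated 3 (adjusted p = 0.057 to 0.068). Unmatched XLOC_060340 (chr5:105798834-105810297, plus strand), between Lrrc8c and Lrrc8d, had levels of 0.571, 1.69 and 2.8 in KI naive, 0, 0.423 and 0.706 in KIKO naive, 3.58, 3.17 and 3.87 in KI activated and 0.144, 0.92 and 0.502 in KIKO activated cells. KIKO was lower in activated cells with no overlap, -1.61 ± 0.32. This locus reached 1 in KI libraries alone, so the difference restates how it was chosen and no p is given. XLOC_006368 (chr10:47328452-47332788, plus strand) had levels of 13, 13.5 and 15.2 in KI naive, 6.51, 3.05 and 0 in KIKO naive, 8.09, 9.56 and 7.05 in KI activated and 0, 0 and 4.42 in KIKO activated cells. Its activated difference was -2.39 ± 0.69, adjusted p = 0.016, and the call was lost without KI activated 2, KIKO activated 1 or KIKO activated 2 (adjusted p = 0.051 to 0.067).

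Loci higher in activated KIKO cells included a DNA repair gene and a collagen receptor. Mgmt encodes the protein that removes alkyl groups from guanine in DNA. Mgmt (XLOC_071772, chr7:136496289-136734708, plus strand, 4 of 15 splice sites) had levels of 1.89, 0.362 and 0.619 in KI naive, 0.428, 2.86 and 0.877 in KIKO naive, 1.71, 2.11 and 2.01 in KI activated and 6.35, 6.94 and 4.75 in KIKO activated cells. KIKO activated libraries lay above all others, 1.24 ± 0.35, adjusted p = 0.014 against KI activated cells, and the call was lost with a pseudocount of 0.1 (adjusted p = 0.060). Ddr1 is a receptor tyrosine kinase for collagen. Ddr1 (XLOC_035592, chr17:35993516-36042798, minus strand, 16 of 32 splice sites) had levels of 15.4, 14.4 and 12.8 in KI naive, 8.7, 8.3 and 13.7 in KIKO naive, 8.22, 6.18 and 4.78 in KI activated and 11.4, 15.5 and 16.1 in KIKO activated cells. The difference in activated cells was 1.07 ± 0.21, adjusted p = 0.0014.

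Unmatched XLOC_028406 (chr15:89651749-89653110, plus strand) had levels of 11.4, 12.3 and 10.2 in KI naive, 28.3, 26.6 and 14.7 in KIKO naive, 1.7, 15.3 and 13 in KI activated and 23.4, 27.6 and 33.4 in KIKO activated cells. KIKO was higher in activated cells by 1.76 ± 0.52, adjusted p = 0.017, a call lost without KIKO activated 3 (adjusted p = 0.057). The difference was 0.93 without KI activated 1. Mturn (XLOC_065119) was higher in KIKO activated cells by 0.85 ± 0.27, adjusted p = 0.027, lost without KI activated 2, KI activated 3, KIKO activated 1 or KIKO activated 3 (adjusted p = 0.067 to 0.10). Its value was 0.50 without KIKO activated 3.

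**Figure D4:**
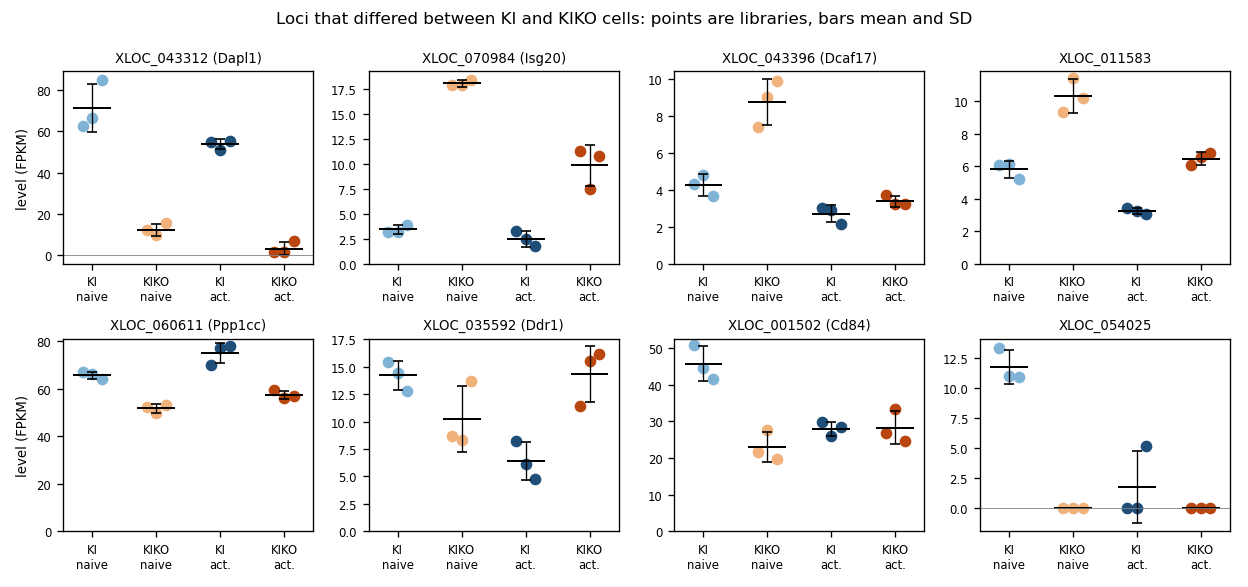
FPKM by library for members that differed between KI and KIKO cells, in the 4 groups of 3 libraries, with points for libraries and bars for the group mean and SD. Dapl1 was 50.8 to 84.8 in KI and 1.22 to 15.4 in KIKO libraries, and Isg20 was 1.74 to 3.93 in KI and 7.48 to 18.5 in KIKO libraries.

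The response to activation differed between the genotypes, by the interaction term, at 18 members (8.74%), 9 with a larger value in KIKO and 9 with a larger value in KI cells. The background was 20.6% of all loci (8.99% and 11.6%). The count was 11 without KI activated 2, and 8 of the 18 calls held without any 1 library. Matched members gave 4 and 8, unmatched members 5 and 1. The median over the members was 0.09 (0.055 under quantile normalization, 0.20 without both KIKO replicate 2 libraries, 0.16 without KIKO naive 2 alone, 0.21 with a pseudocount of 0.1 and 0.0077 over those 77 members), against -0.01 over all loci, and 20 were called without both KIKO replicate 2 libraries.

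The interaction was -2.28 ± 0.44, adjusted p = 0.0042, at Mettl1 (XLOC_007253) and -1.71 ± 0.35, adjusted p = 0.0061, at Ebna1bp2 (XLOC_054923), where both genotypes rose and KIKO rose less. At Ddr1 (XLOC_035592) it was 1.53 ± 0.29, adjusted p = 0.0039: KI cells fell by 1.06 ± 0.21 (adjusted p = 6.9e-04), and the KIKO difference was 0.47 ± 0.21, adjusted p = 0.078. Its start exon at chr17:36042175-36042798 was 14.5, 14.0 and 6.31 in KI naive and 0 in all 3 KI activated libraries. The start exon at chr17:36011323-36011502 was 0.934, 0.376 and 6.47 in KI naive and 7.93, 6.18 and 4.49 in KI activated cells. In KIKO cells the first went from 3.23, 3.95 and 10.3 to 0.209, 0 and 3.28. The second went there from 5.48, 4.36 and 3.37 to 11.1, 14.4 and 12.7. At Cd84 (XLOC_001502) it was 0.97 ± 0.20, adjusted p = 0.0058. Rbm45, an RNA-binding protein, was one of 2 members called in opposite directions and is named for that. Rbm45 (XLOC_043468, chr2:76200292-76219900, plus strand, 6 of 8 splice sites) had levels of 14.5, 15.1 and 17.3 in KI naive, 20.9, 20.0 and 20.9 in KIKO naive, 19, 18.4 and 18.1 in KI activated and 14.8, 16 and 14 in KIKO activated cells. The interaction was -0.67 ± 0.13, adjusted p = 0.0039, and the KI rise of 0.23 ± 0.09 was lost without any 1 library other than KI naive 3, KIKO naive 2, KIKO activated 2 or KIKO activated 3 (adjusted p = 0.053 to 0.14). The other was XLOC_006014 (chr10:8419948-8427031, plus strand), listed in KI naive (1.19, 1.61 and 0.337) and KIKO activated (0.561, 0.933 and 1.16) libraries and in no other. It entered the set through KI naive and KIKO activated cells alone, so its opposite directions restate how it was chosen and no p is given. Its KI call was lost without KI naive 2 and its KIKO call without KIKO activated 2 or KIKO activated 3.

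A group of 8 members shares a regular spacing that no rule used. In each, at least 3 distances between neighbouring splice sites of the same kind are multiples of 38 bp, up to 6 times 38. No symbol-bearing locus has 3 such distances, and 13 have 2. The spacing was noticed in these data, and none of the 8 matched a gene. All 8 had a lower mean in KIKO than in KI cells, in both naive and activated cells, as did 24.9% of all tested loci (42.6% in naive and 46.4% in activated cells). In each state 2 of the 8 were called, beside 10.4% of all loci in naive and 40% in activated cells. Reads of such repeated units may be shared among the loci, so the 8 may not be independent of each other.

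The strongest of them, XLOC_011291 (chr11:86702249-86707222, plus strand), lies between Dhx40 and Ypel2 and was the second most abundant member. Its levels were 999, 866 and 780.4 in KI naive, 325, 458 and 209 in KIKO naive, 383, 655 and 393 in KI activated and 192, 140.4 and 238 in KIKO activated cells. KIKO libraries lay below all KI libraries of the same state, with differences of -1.48 ± 0.28, adjusted p = 0.0080, in naive and -1.31 ± 0.28, adjusted p = 0.0032, in activated cells. With activation it fell by 0.92 ± 0.28 (adjusted p = 0.014) in KI cells, a call lost without KI activated 1 or KI activated 3 (adjusted p = 0.054 to 0.055). In KIKO cells the fall of 0.76 ± 0.28 (adjusted p = 0.046) was lost without any 1 library other than KIKO naive 3, KI activated 2 or KIKO activated 3 (adjusted p = 0.051 to 0.18), and was 0.49 without KIKO naive 2.

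The second called locus was XLOC_055317 (chr4:143705754-143708168, plus strand), with levels of 41.3, 45.6 and 34.4 in KI naive, 20.4, 28.9 and 18.4 in KIKO naive, 44.6, 31.3 and 27.2 in KI activated and 12.9, 18.3 and 14 in KIKO activated cells. Here too the genotypes did not overlap within a state, with differences of -0.83 ± 0.21, adjusted p = 0.025, in naive and -1.13 ± 0.21, adjusted p = 0.0010, in activated cells. The naive call was lost without KI naive 1, KI naive 2, KIKO naive 1 or KIKO naive 3 (adjusted p = 0.070 to 0.087), and was -0.52 with the largest single event only. Third-most abundant of all members was XLOC_040280 (chr19:4110365-4116370, plus strand), between Gstp3 and Cdk2ap2, with levels of 181, 386 and 187 in KI naive, 249, 179 and 135 in KIKO naive, 280.4, 206 and 157 in KI activated and 170.0, 78.9 and 119.7 in KIKO activated cells. Its libraries varied widely within groups, and the differences of -0.38 ± 0.35, adjusted p = 0.53, in naive and -0.83 ± 0.35, adjusted p = 0.077, in activated cells did not pass. The other 5 (XLOC_015954, XLOC_020610, XLOC_035584, XLOC_045256 and XLOC_055569) were each at 0 in at least 1 library, never above 17.8, and not called in any comparison. XLOC_055569 lies on the other strand of XLOC_054025 and overlaps it by 631 bp.

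**Figure D5:**
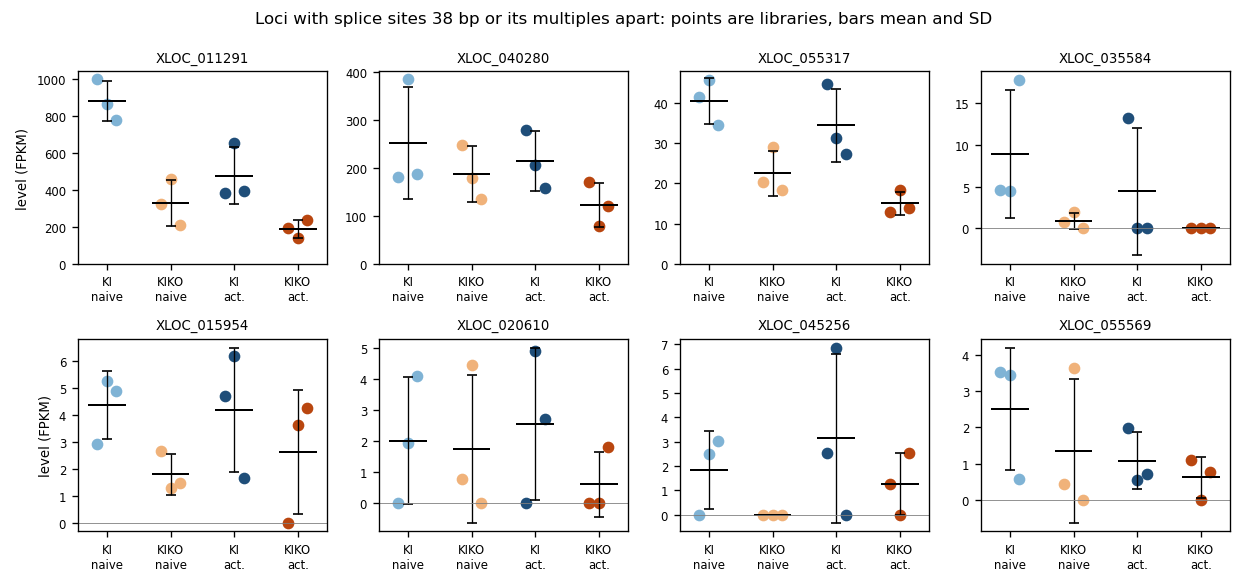
FPKM by library for the loci whose splice sites are spaced in steps of 38 bp, in the 4 groups of 3 libraries, with points for libraries and bars for the group mean and SD. XLOC_011291 was 780.4 to 999 in KI naive and 209 to 458 in KIKO naive libraries, and XLOC_040280 ranged from 78.9 to 386 with overlapping groups.

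T cell receptor segments lay on both sides of 5 members, picked for their place and not by the naming rule. XLOC_064910 (chr6:41173178-41179043, plus strand), between Trbv20 and Trbv21, was 325 and 34.1 in KIKO naive 1 and 2, 110.4 in KI activated 3, 72.3 in KIKO activated 3 and 0 in the other 8 libraries. It was called in no comparison. XLOC_024479 (chr14:53782341-53798823, plus strand), between Trav12-1 and Trav9-2, had levels of 16.1, 16.2 and 17.5 in KI naive, 12.1, 5.0 and 13.8 in KIKO naive, 23.4, 21.5 and 17 in KI activated and 13.2, 11.1 and 12.7 in KIKO activated cells. KIKO values were lower in activated cells without overlap, -0.69 ± 0.26, adjusted p = 0.054, which did not pass. XLOC_024406 (chr14:53073286-53076397, plus strand), between Trav11d and Trav12d-1, was lower in KIKO naive cells by 0.89 ± 0.23 (adjusted p = 0.028), lost without KI naive 1, KI naive 2, KI naive 3, KIKO naive 1 or KIKO naive 3 (adjusted p = 0.065 to 0.084). XLOC_024498 (chr14:54032814-54035183, plus strand), between Trav3-4 and Trav17, fell with activation in KI cells by 1.13 ± 0.33. That locus reached 1 in naive libraries alone, so the fall restates how it was chosen and no p is given. XLOC_024439 (chr14:53384347-53387468, plus strand), between Trav11n and Trav12n-1, had levels of at most 2.1 and was called in no comparison. A sixth member, Vps41 (XLOC_019893, chr13:18901456-19057146, plus strand, 12 of 14 splice sites), has Trgv4 as a neighbour at 311997 bp. Vps41 is a subunit of a complex of vesicle fusion with lysosomes, and it was higher in KIKO activated cells by 0.39 ± 0.10, adjusted p = 0.0095. Variable segments resemble each other, so reads may be shared among the 5 loci.

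At the end of X, 5 members have Erdr1 as their nearest named neighbour. The highest, XLOC_087406 (chrX:169090876-169097831, minus strand), had levels of 37.7, 45.3 and 39.6 in KI naive, 44.4, 60.4 and 38.9 in KIKO naive, 21.5, 24.3 and 25.7 in KI activated and 30.4, 30.1 and 36.4 in KIKO activated cells. It fell with activation by 0.75 ± 0.15 (adjusted p = 8.1e-04) in KI cells and by 0.53 ± 0.15 (adjusted p = 0.011) in KIKO cells, and the second call was lost without both KIKO replicate 2 libraries or with summed transcript starts only (adjusted p = 0.095 to 0.27). XLOC_087405, described above, rose instead. XLOC_086109 (chrX:169098091-169105545, plus strand) had levels of 17.8, 23.5 and 22.7 in KI naive, 23.4, 45.6 and 22.3 in KIKO naive, 23.6, 13 and 23.2 in KI activated and 22.4, 25.1 and 23 in KIKO activated cells and was called in no comparison. Of the 8 scaffold loci, XLOC_084592 (GL456233.2:251282-468997, plus strand) fell with activation by 1.00 ± 0.19 (adjusted p = 6.5e-04) in KI and by 0.72 ± 0.19 (adjusted p = 0.0089) in KIKO cells. Its KIKO call was lost without both KIKO replicate 2 libraries (adjusted p = 0.066), and its KI call with summed transcript starts only (adjusted p = 0.071). XLOC_084706 (MU069434.1:1-7781, minus strand) fell by 0.65 ± 0.18 (adjusted p = 0.0082) in KI and by 0.59 ± 0.18 (adjusted p = 0.020) in KIKO cells, and its KIKO call was lost without KIKO naive 2 or KIKO activated 2 (adjusted p = 0.068 to 0.074), with a fall of 0.37 without KIKO naive 2. For these repeat-rich places how reads with several possible origins were counted is not given in the labels.

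Known noncoding genes gave a comparison, from a list of 30 of which 11 were listed and 9 tested. They were called higher at 2 and lower at 3 after activation in KI cells (61.7% of all loci), higher at 2 and lower at 2 in KIKO cells (47.3%), and in KIKO against KI lower at 1 in naive (10.4%) and higher at 2 in activated cells (40%). With 9 genes these shares are near or below those over all loci. The medians were -0.45 and -0.22 for activation and 0.34 and 0.39 for genotype, over 9 genes. The median of -0.22 is the value of Neat1 (± 1.41) and that of 0.39 the value of Malat1 (± 1.75). Both genes are at 0 in many libraries, so these 2 medians show no shift of the list. Pvt1, a noncoding gene beside Myc, rose by 1.05 (adjusted p = 2.6e-04) in KI and 2.56 (adjusted p = 1.1e-06) in KIKO cells and was the 1 gene of the list called in the interaction.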

How the data were processed

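Poly(A) RNA of mouse CD4 T cells went into stranded TaKaRa SMART-seq libraries, as stated per the labels' protocols. The submitters' processing notes name FastQC 0.11.9, cutadapt 2.9, HISAT2 2.2.0 and the builds GRCm39 and mm10, and locus coordinates are GRCm39. The authors deposited FPKM per transcript event, 1 file for each of the 12 libraries. The program behind them and the handling of reads with several origins are not given in the sources used here. FPKM hold no read numbers, so depth is unknown.

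Duplicate lines of an event (8.63 to 9.41% per library) were dropped and levels computed as described above. limma 3.58.1 (R 4.3.3) was fitted with an intensity trend to log2(FPKM + 1) of 9743 loci with 4 group means, tested on simulated data first. Named members are the 8 most abundant and, per comparison, up to 4 in each direction with the largest called change, a group mean of 2 or more and no overlap (not asked of the interaction). Others are said to be picked after their values were seen. The members and lists were chosen with earlier results of these data known. Alternatives were a pseudocount of 0.1, other filters, median-ratio scaling, quantile normalization, other level definitions, no trend, a replicate block, each library left out and, chosen after seeing the data, both KIKO replicate 2 libraries left out. GENCODE M21 and RefSeq promoter coordinates are GRCm38 and were not converted. Tables were handled with pandas 2.3.3 in Python 3.11.15.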

Additional observations from a re-analysis of the deposited data

Results flagged for a closer look

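At 10 of the named loci the response to activation differed between KI and KIKO cells by the interaction term of the limma fit. Values are the KIKO response minus the KI response on log2(FPKM + 1), with SE and the p adjusted over all 9743 loci. Of all loci 20.6% were called in this way, a share to which the count of named loci cannot be compared.

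The KIKO response was lower at Mettl1 (XLOC_007253), with -2.28 ± 0.44, adjusted p = 0.0042, and at Ebna1bp2 (XLOC_054923), with -1.71 ± 0.35, adjusted p = 0.0061. Both calls held without any 1 library. The same direction was seen at Pcgf5, a polycomb group protein (XLOC_040691, chr19:36325709-36446925, plus strand, 10 of 13 splice sites), with -1.09 ± 0.34, adjusted p = 0.041, at levels of 3.06, 3.68 and 5.13 in KI naive, 5.96, 2.91 and 3.21 in KIKO naive, 7.08, 10.2 and 11.9 in KI activated and 4.36, 3.24 and 4.17 in KIKO activated cells. That call was lost without any 1 library other than KI naive 3, KIKO naive 2, KIKO naive 3 or KI activated 1 (adjusted p = 0.059 to 0.10). Dcaf17 (XLOC_043396) gave -0.64 ± 0.21, adjusted p = 0.048, lost without any 1 library other than KIKO naive 1 or KI activated 3 (adjusted p = 0.052 to 0.11), and -0.38 with the largest single event only. Unmatched XLOC_024146, listed in KIKO cells alone, gave -1.45 ± 0.38. It entered the set through KIKO naive cells alone, so this value restates how it was chosen and no p is given.

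The KIKO response was higher at Ddr1 (XLOC_035592), with 1.53 ± 0.29, adjusted p = 0.0039, and that call held without any 1 library. Tpt1 (XLOC_024827), the most abundant member, gave 0.74 ± 0.20, adjusted p = 0.021, lost without KI activated 2, KI activated 3 or KIKO activated 3 (adjusted p = 0.051 to 0.060), and 0.027 under quantile normalization (adjusted p = 0.96). The other 3 loci are at 0 in many libraries, and their fitted values depend on the pseudocount. XLOC_076478 gave 3.41 ± 0.98, adjusted p = 0.028, lost without any 1 library other than KIKO naive 1, KIKO naive 2, KI activated 2 or KIKO activated 1 (adjusted p = 0.050 to 0.076). XLOC_054025 gave 2.79 ± 0.75. It entered the set through KI libraries alone, so this value restates how it was chosen and no p is given. The scaffold locus XLOC_084710 had levels of 0, 1.09 and 2.22 in KI naive, 0 in all 3 in KIKO naive, 0 in all 3 in KI activated and 2.8, 3.48 and 0 in KIKO activated cells. It gave 2.28 ± 0.75, and the call was lost without any 1 library other than KI naive 1 or KIKO activated 3. XLOC_084710 entered the set through KI naive and KIKO activated cells alone, which both raise this term. The value thus restates how it was chosen and no p is given.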

How the results depend on the processing

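The number of members was 206 at the chosen filter and 132 where 6 libraries had to reach 1. With a minimum absolute log2 difference of 1, 8 members were called for genotype in naive cells, 17 in activated cells, 56 for activation in KI cells, 42 in KIKO cells and 11 for the interaction. Leaving out 1 library gave 10 to 22, 30 to 47, 74 to 104, 59 to 79 and 11 to 18 calls in the same order, against 19, 42, 97, 75 and 18 with all libraries. Of 251 member calls, 157 held without any 1 library, 67 of 97 and 52 of 75 for activation and 8 of 18 for the interaction. Among 78 called differences of the named members, 52 kept direction and call under every setting run, and 26 fell short under at least 1. A single one reversed, the KI activation difference of Ppp1cc, which was -0.0906 under quantile normalization, and the cause was not tested. The other settings moved no total count of calls by more than 1.5 times. By direction, the interaction gave 8 higher and 5 lower members with a pseudocount of 0.1, against 9 and 9. Where 6 libraries had to reach 1, it gave 5 and 7. Depth is unknown, so how far sampling noise limits the weak loci cannot be given.

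With the replicate number as a block, 17, 42, 93, 77 and 16 members were called in the same order. The correlation of deviations between same-numbered libraries was -0.036 to 0.121, so the numbers were not taken as a pairing of the samples. For KI naive against KI activated cells, every library correlated best with its own number, a hint from the data and not from the design.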
